A study of Mus musculus with 12 samples.

Results

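The genes described here are the receptors through which bone morphogenetic proteins (BMPs) signal, the inhibitory Smads and the Id genes, in mouse progenitor cells moved from cartilage-forming to bone-forming culture. They are 10 genes chosen by symbol: Bmpr1a, Bmpr1b, Bmpr2, Acvr1, Smad6, Smad7, Id1, Id2, Id3 and Id4. The deposited expression matrix lists 28244 genes, of which 17674 passed the filter on low values (3 or more libraries reaching a log2 value of 1) and were tested. All 10 of the chosen genes are listed and all 10 passed.

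RNA was sequenced from 12 libraries, 3 replicates at each of 4 time points of a serial differentiation of progenitors from C57/BL6 pups. The pups were 5 or 6 days old, and the cells came from femur heads and condyles and from tibia heads and were grown as pellets. Every pellet spent 7 days in chondrogenic medium. D7 pellets were collected at that point, and D8, D10 and D28 pellets after a further 1, 3 and 21 days in osteogenic medium, which was replaced every 4 days. No genetic change or added inhibitor was part of these groups, and no pellets kept in chondrogenic medium beyond D7 were analysed here, so time in culture and the change of medium cannot be told apart. The labels number the replicates without saying whether they are separate cultures or animals. The p-values given below therefore measure only the spread between these libraries, which may be technical. A pellet is a bulk sample, in which fewer cells of a type and less RNA per cell cannot be told apart.

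BMPs bind a complex of type I receptors (Bmpr1a, Bmpr1b and Acvr1 among them) and type II receptors (such as Bmpr2), and the type I receptor then phosphorylates Smad1, Smad5 and Smad9, which enter the nucleus with Smad4. The Id genes are classical direct targets of these Smads, and Smad6 and Smad7 are targets that act back on the pathway as inhibitors. Id proteins contain a helix-loop-helix domain but no DNA-binding region, and they bind E proteins and so keep tissue-specific helix-loop-helix factors off DNA. In the skeleton, BMP signalling is needed both for cartilage formation and for osteoblast differentiation.

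The promoters of these genes were searched for a pair of short sequences associated with BMP-responsive Smads. The first was the palindromic GC-rich box GGCGCC, and the second the compound element GNCGNCNNNNNGTCT, searched on both strands, where the box can form the first letters of the element. RefSeq windows on GRCm38.p6, each of 300 bases from 250 before to 50 after the annotated start, were given for 8 of the 10 genes, all except Id1 and Smad7. The windows of Id2, Id3, Id4 and Smad6 are shown because these genes include those with the largest differences between time points and differ in which of the sequences they hold. Each is written on the strand of the gene from 5′ to 3′, with any match in capitals.
Id2, minus strand of chr12:25096043-25096342: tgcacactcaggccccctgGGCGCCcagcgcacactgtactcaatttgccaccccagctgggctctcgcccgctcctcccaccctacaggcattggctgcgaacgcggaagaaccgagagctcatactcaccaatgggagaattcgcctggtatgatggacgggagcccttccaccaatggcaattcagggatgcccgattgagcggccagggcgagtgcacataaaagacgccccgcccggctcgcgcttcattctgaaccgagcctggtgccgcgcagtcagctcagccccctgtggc
Id3, plus strand of chr4:136143572-136143871: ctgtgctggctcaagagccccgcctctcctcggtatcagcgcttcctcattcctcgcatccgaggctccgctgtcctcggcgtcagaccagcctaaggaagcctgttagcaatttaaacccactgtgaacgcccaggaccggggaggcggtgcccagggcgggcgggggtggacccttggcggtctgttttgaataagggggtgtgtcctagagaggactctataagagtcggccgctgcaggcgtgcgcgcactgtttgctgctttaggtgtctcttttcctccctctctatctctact
Id4, plus strand of chr13:48260866-48261165: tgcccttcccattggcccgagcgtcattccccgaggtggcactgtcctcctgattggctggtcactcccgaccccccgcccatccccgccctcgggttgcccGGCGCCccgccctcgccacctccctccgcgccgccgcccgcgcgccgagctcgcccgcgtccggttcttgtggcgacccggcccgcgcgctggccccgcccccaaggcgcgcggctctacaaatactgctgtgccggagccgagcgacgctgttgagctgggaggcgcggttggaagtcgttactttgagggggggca
Smad6, minus strand of chr9:64022010-64022309: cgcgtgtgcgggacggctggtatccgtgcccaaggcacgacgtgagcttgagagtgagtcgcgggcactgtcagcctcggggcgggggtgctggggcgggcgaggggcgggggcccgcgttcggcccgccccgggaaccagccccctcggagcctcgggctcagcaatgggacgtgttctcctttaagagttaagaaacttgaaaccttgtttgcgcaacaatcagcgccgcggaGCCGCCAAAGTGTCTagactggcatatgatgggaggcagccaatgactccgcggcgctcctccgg

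The GC-rich box was found once in each of the Id2, Id4, Bmpr1a and Bmpr2 windows, at -231, -148, -198 and -105 from the start. It occurs in 11.9% of the 32544 distinct RefSeq windows of the same length. The compound element was found in 1 of the genes, Smad6, at -15, where it reads GCCGCCAAAGTGTCT, and occurs in 0.673% of all windows. Neither sequence was found in the windows of Id3, Acvr1 or Bmpr1b (3 windows for the latter), which says only that these letters are not in those windows. The share of G and C was 63.3% for Id2, 60% for Id3, 73.3% for Id4 and 66.3% for Smad6, against a median of 53% over all windows. A match is a description of the sequence and was not tested for binding.

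Values are log2 of the equalized count plus 1, in which the authors brought all libraries to nearly the same distribution. The total read counts are not kept in such values. Relative depth, read from the lowest levels of each library over 562 genes, ranged from 0.73 in D10 replicate 1 to 1.31 in D28 replicate 1, with all 3 D28 libraries at 1.2 or above. In every library 3 reads lie at a log2 value of 2.87 or less, and the lowest value of any of the 10 genes was 4.45, about 10 reads, for Id4 in D10 replicate 1. Differences between time points were tested with limma on all 12 libraries. A gene was said to have risen or fallen when the log2 fold change was at least 1 in size and the adjusted p (Benjamini-Hochberg over all genes tested) was under 0.05, and intervals are 95% confidence intervals of the log2 fold change.

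Most of the 10 genes stayed within the fold threshold at each step. From D7 to D8, 0 rose and 0 fell, where 3.23% of all genes tested rose and 3.81% fell. The study's own rule, an unadjusted p from each gene's own spread with the same fold threshold, also gave 0 and 0, and called 1492 of the 17674 genes. At an unadjusted p under 0.05 (limma) there were 5, where 33.3% of all genes passed in either direction, and at an adjusted p under 0.05 (limma) there were 2, Smad7 higher and Smad6 lower, where 21% of all genes passed that test in either direction. From D8 to D10, 0 rose and 0 fell, where 4.08% of all genes rose and 5.58% fell. The study's own rule also gave 0 and 0, and called 1740 of the 17674 genes. Here 6 had an unadjusted p under 0.05, where 39.3% of all genes did, and 4 an adjusted p under 0.05 (limma), of which Bmpr2 was higher and Smad6, Id3 and Id4 lower, where 28.8% of all genes passed. Over the whole interval from D7 to D10, Smad7 rose and Id3 fell, 1 in each direction, where 8.5% of all genes rose and 10.4% fell, and 4 passed the adjusted p at any fold change, where 41.2% of all genes did. From D10 to D28, Id3 and Id4 rose and Smad7 fell, 2 and 1 of the 10, where 13.8% of all genes rose and 13.7% fell. In that step 8 of the 10 passed the adjusted p at any fold change, where 52.4% of all genes did. Between D7 and D28, Id4 rose and 0 fell, where 8.63% of all genes rose and 8.66% fell, 6 had an unadjusted p under 0.05 (limma), where 45.3% of all genes did, and 6 passed the adjusted p at any fold change, where 37.3% did. The median log2 fold change of the 10 genes was -0.06, 0.18, -0.01, 0.35 and 0.21 in these comparisons in turn, beside 0.026, 0.000, 0.053, -0.103 and -0.032 over all genes tested. Comparisons with a time point in common share its libraries and are not independent of each other.

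**Figure D1:**
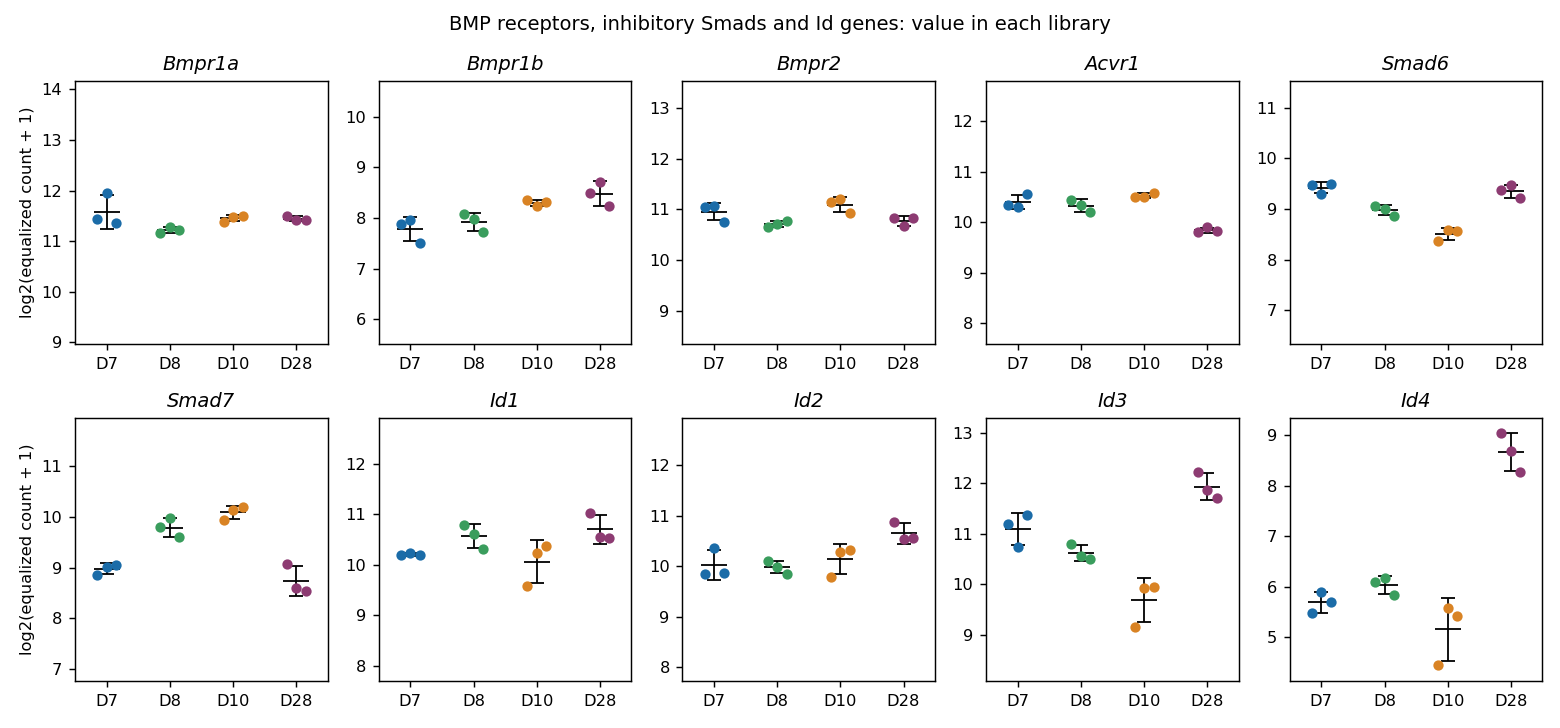
Value of each of the 10 genes in each library, as log2 of the equalized count plus 1 (vertical axis, with the same span in every panel), by time point (horizontal axis). Points are libraries (3 per time point), the long bar is the mean and the short bars the SD, and the 3 D28 libraries of Id4 sit between 8.27 and 9.03, above all others at 6.18 or less.

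Among the type I receptors, Bmpr1b was higher and Acvr1 lower at D28 than at D7, and the D28 libraries of Bmpr1a overlapped with those of D7. Bmpr1a (chromosome 14, 34410734 to 34503341, minus strand of GRCm38, as are all gene positions below) read 11.43, 11.96 and 11.36 at D7 and 11.17, 11.29 and 11.23 at D8. It read 11.38, 11.47 and 11.50 at D10 and 11.49, 11.41 and 11.41 at D28. The D8 libraries lay below those of the other time points, and the D7, D10 and D28 libraries overlapped. The log2 fold change from D7 to D8 was -0.35 (interval -0.63 to -0.08, limma, adjusted p = 0.066). It was -0.40 (adjusted p = 0.038) under median-of-ratios scaling. Leaving out each library in turn gave values of -0.47 to -0.16, with adjusted p-values of 0.023 to 0.23. The log2 fold change from D7 to D28 was -0.15 (-0.42 to 0.13, adjusted p = 0.41), and it became 0.04 without D7 replicate 2.

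Bmpr1b, a type I receptor with a known part in forming cartilage condensations (chromosome 3, 141837136 to 142169425, minus strand), read 7.89, 7.95 and 7.50 at D7 and 8.07, 7.97 and 7.72 at D8. Its values were 8.35, 8.23 and 8.31 at D10 and 8.49, 8.71 and 8.23 at D28. Every D10 and D28 library lay above every D7 and D8 library, and the D10 and D28 libraries overlapped. Bmpr1b was 1.62-fold higher at D28 than at D7 (log2 fold change 0.69, SE 0.17, limma, adjusted p = 0.0038), which is under the fold threshold. Within each library Bmpr1b was lower than Bmpr1a, by a mean log2 difference of -3.80 ± 0.24 (SD, n = 3) at D7 and -3.31 ± 0.21 at D8. The difference was -3.15 ± 0.11 at D10 and -2.96 ± 0.24 at D28. It narrowed in its means at each time point, while the D8, D10 and D28 libraries overlapped.

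Acvr1, the type I receptor that carries the activating mutation of fibrodysplasia ossificans progressiva (chromosome 2, 58388644 to 58567157, minus strand), read 10.35, 10.30 and 10.56 at D7 and 10.44, 10.35 and 10.21 at D8. It read 10.50, 10.49 and 10.58 at D10 and 9.80, 9.90 and 9.82 at D28. The D28 libraries lay below all others, which spanned 10.21 to 10.58. Acvr1 was 1.61-fold lower at D28 than at D10 (log2 fold change -0.69, interval -0.90 to -0.47, limma, adjusted p = 3.5e-05) and 1.48-fold lower than at D7 (-0.56, interval -0.78 to -0.35, adjusted p = 3.9e-04), both under the fold threshold. Leaving out each library in turn moved the D28 against D10 value between -0.72 and -0.66.

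Bmpr2, the type II receptor specific to BMPs and related factors (chromosome 1, 59763400 to 59879014, plus strand), read 11.04, 11.07 and 10.75 at D7 and 10.66, 10.72 and 10.76 at D8. At D10 the values were 11.14, 11.21 and 10.92, and at D28 they were 10.83, 10.67 and 10.82. The D10 libraries lay above those of D8 and D28 and overlapped with D7. Bmpr2 was 1.30-fold higher at D10 than at D8 (log2 fold change 0.38, interval 0.14 to 0.61, limma, adjusted p = 0.018) and 1.25-fold lower at D28 than at D10 (-0.32, interval -0.55 to -0.08, adjusted p = 0.024), both under the fold threshold. Leaving out single libraries took these adjusted p-values as high as 0.074 and 0.099, and median-of-ratios scaling gave -0.19 (adjusted p = 0.17) for D28 against D10. Between D7 and D28 the log2 fold change was -0.18 (interval -0.42 to 0.05, adjusted p = 0.21).

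The inhibitory Smads moved in opposite directions up to D10, and both moved back toward their D7 values by D28. Smad6, which interferes mainly with BMP type I receptors and Smad1 (chromosome 9, 63953076 to 64022059, minus strand), read 9.47, 9.30 and 9.50 at D7 and 9.06, 9.0 and 8.87 at D8. Its values were 8.36, 8.58 and 8.57 at D10 and 9.37, 9.47 and 9.21 at D28. The libraries of D7, D8 and D10 did not overlap with each other, each time point lying below the one before, and the D28 libraries lay within or just under the D7 range. Smad6 was 1.36-fold lower at D8 than at D7 (log2 fold change -0.45, interval -0.70 to -0.19, limma, adjusted p = 0.014), and leaving out each library in turn gave adjusted p-values of 0.010 to 0.060. It was 1.90-fold lower at D10 than at D7 (log2 fold change -0.92, SE 0.12, interval -1.18 to -0.67, limma, adjusted p = 1.7e-05), just under the fold threshold. It was 1.80-fold higher at D28 than at D10 (0.85, interval 0.60 to 1.10, adjusted p = 2.1e-05). Its D28 and D7 means differed by -0.07 (interval -0.33 to 0.18, adjusted p = 0.67).

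Smad7, which inhibits both BMP and TGF-beta receptors, read 8.85, 9.02 and 9.06 at D7 and 9.80, 9.97 and 9.60 at D8. It read 9.94, 10.14 and 10.19 at D10 and 9.07, 8.59 and 8.53 at D28. All D8 and D10 libraries lay above all D7 and D28 libraries. Smad7 was 1.76-fold higher at D8 than at D7 (log2 fold change 0.82, interval 0.50 to 1.13, limma, adjusted p = 0.0011), under the fold threshold, and by D10 it rose 2.16-fold over D7 (1.11, SE 0.15, interval 0.80 to 1.42, adjusted p = 2.4e-05). From D10 to D28 it fell 2.56-fold (-1.35, interval -1.67 to -1.04, adjusted p = 1.7e-06). At D28 it differed from D7 by -0.24 (interval -0.56 to 0.07, adjusted p = 0.22), and D28 replicates 2 and 3 lay below all D7 libraries. Leaving out each library in turn gave -0.41 to -0.14, with the adjusted p at its lowest, 0.032, without D28 replicate 1, the highest D28 library.

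The order of both inhibitors, taken within each library, was reversed at D8 and D10. Smad7 minus Smad6 was -0.62, -0.28 and -0.44 at D7, so Smad6 was the higher of the pair in every D7 library. At D8 the difference was 0.74, 0.98 and 0.73, and at D10 it was 1.58, 1.56 and 1.62, so that Smad7 was the higher in all 6 of these libraries. At D28 it was -0.30, -0.87 and -0.68, with Smad6 again the higher in every library. This is a description of values already tested gene by gene and has no test of its own. Across the 12 libraries the Pearson correlation between Smad6 and Smad7 was -0.84, over libraries that share time points.

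**Figure D2:**
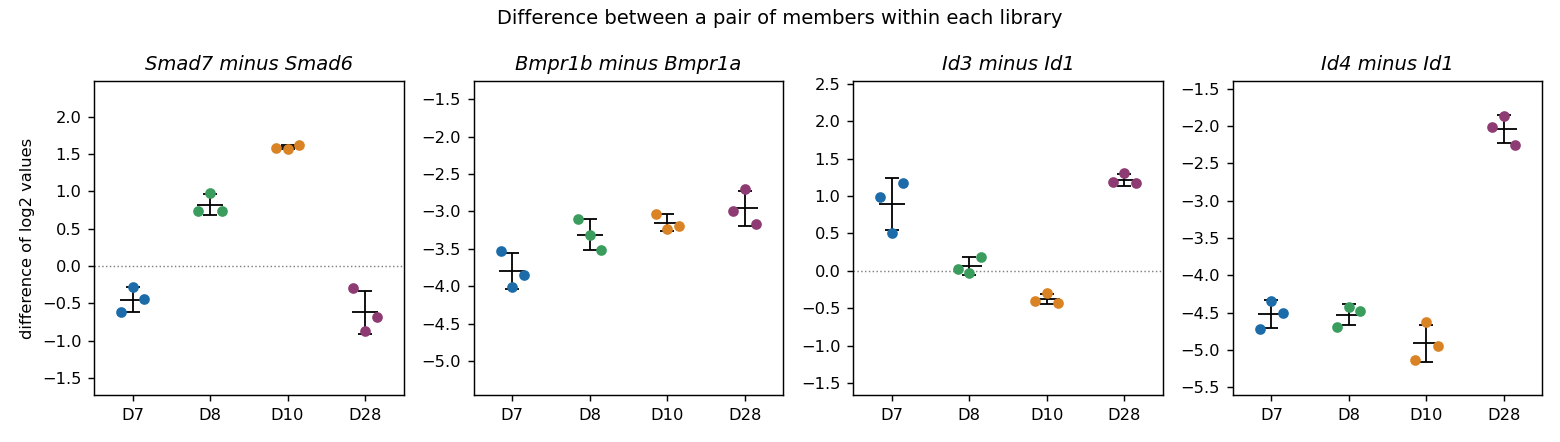
Difference of log2 values between a pair of genes within each library (vertical axis, with the same span in every panel) by time point (horizontal axis). Points are libraries (3 per time point), the long bar is the mean and the short bars the SD, and the D10 libraries of Smad7 minus Smad6 sit between 1.56 and 1.62 while all D7 and D28 libraries are below 0.

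Id4 showed the widest range of the Id genes and of all 10 genes. Id4 (chromosome 13, 48261228 to 48266026, plus strand) read 5.49, 5.89 and 5.69 at D7 and 6.10, 6.18 and 5.83 at D8. It read 4.45, 5.59 and 5.43 at D10 and 9.03, 8.68 and 8.27 at D28. The D28 libraries lay above all others by more than the whole spread of the earlier time points, and D10 replicate 1 was the lowest. Id4 rose 7.85-fold from D7 to D28 (log2 fold change 2.97, SE 0.30, interval 2.34 to 3.60, limma, adjusted p = 1.4e-06) and 11.3-fold from D10 to D28 (3.50, interval 2.87 to 4.14, adjusted p = 1.1e-07). Its D10 values rest on about 10 to 33 reads and its D28 values on at least about 401 to 649. Without D10 replicate 1, the shallowest library, the rise from D10 to D28 was 3.15 (adjusted p = 1.8e-07). From D8 to D10, Id4 was lower by -0.88 (adjusted p = 0.037), and without that library the difference was -0.52 (adjusted p = 0.16). It was past the fold threshold without D10 replicate 2 (-1.10, adjusted p = 0.019) and without D10 replicate 3 (-1.02, adjusted p = 0.038).

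An annotated antisense gene, A330033J07Rik, overlaps exons of Id4. It was listed at 0 in the 3 D7 libraries and read 1.06, 2.17 and 0.66 at D8, 1.81, 2.03 and 1.22 at D10, and 3.55, 2.66 and 3.55 at D28. Its values lay far below those of Id4 in every library. The paper's supplementary methods describe a library preparation that preserves strand. Whether the counting used strand is not given in the sources used here, and without strand reads of both genes cannot be told apart where they overlap.

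Id3, which had the highest mean of the 10 genes per kilobase of exon at D7 and D28, was lowest at D10 and highest at D28. Id3 (chromosome 4, 136143497 to 136145755, plus strand) read 11.19, 10.75 and 11.37 at D7 and 10.81, 10.57 and 10.50 at D8. It read 9.17, 9.93 and 9.95 at D10 and 12.22, 11.86 and 11.70 at D28. All D10 libraries lay below and all D28 libraries above every library of the other time points, while D7 and D8 overlapped. From D7 to D10 Id3 fell 2.67-fold (log2 fold change -1.42, SE 0.20, interval -1.85 to -0.98, limma, adjusted p = 4.8e-05), and from D10 to D28 it rose 4.73-fold (2.24, interval 1.81 to 2.67, adjusted p = 2.3e-07). It was 1.77-fold higher at D28 than at D7 (0.83, interval 0.39 to 1.26, adjusted p = 0.0045), under the fold threshold. D10 replicate 1 was the lowest library, and without it the fall from D7 was -1.16 (adjusted p = 1.3e-04) and the rise to D28 1.99 (adjusted p = 4.1e-07). From D8 to D10 Id3 was lower by -0.94 (adjusted p = 0.0029), just under the fold threshold. It was -0.68 (adjusted p = 0.012) without D10 replicate 1, and it reached the threshold without D8 replicate 3 (-1.0, adjusted p = 0.0081), without D10 replicate 2 (-1.06, adjusted p = 0.0030) and without D10 replicate 3 (-1.07, adjusted p = 0.0033).

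Id1, the Id gene most often used as a readout of BMP signalling (chromosome 2, 152736251 to 152737410, plus strand), read 10.20, 10.24 and 10.19 at D7 and 10.79, 10.60 and 10.31 at D8. Its values were 9.58, 10.23 and 10.38 at D10 and 11.03, 10.55 and 10.53 at D28. The D8 and D28 libraries lay above all D7 libraries, and D10 spread over the widest range, with replicate 1 the lowest. Id1 was 1.41-fold higher at D28 than at D7 (log2 fold change 0.49, interval 0.10 to 0.89, limma, adjusted p = 0.049) and 1.56-fold higher than at D10 (0.64, interval 0.24 to 1.04, adjusted p = 0.0091), both under the fold threshold. Without D10 replicate 1 the D28 against D10 value was 0.40 (adjusted p = 0.047), its adjusted p was 0.053 without D28 replicate 1, and leaving out each library in turn gave adjusted p-values of 0.047 to 0.21 for D28 against D7. With the replicate block the latter was 0.066. From D7 to D10 the difference was -0.15 (adjusted p = 0.57) and became 0.09 without D10 replicate 1.

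Id2 (chromosome 12, 25093799 to 25097140, minus strand) read 9.85, 10.37 and 9.86 at D7 and 10.10, 9.99 and 9.85 at D8. It read 9.79, 10.29 and 10.33 at D10 and 10.88, 10.53 and 10.55 at D28. The first 3 time points overlapped with one another, and all D28 libraries lay above them. Id2 was 1.54-fold higher at D28 than at D7 (log2 fold change 0.62, interval 0.27 to 0.98, limma, adjusted p = 0.0075) and 1.43-fold higher than at D10 (0.51, interval 0.16 to 0.87, adjusted p = 0.016), both under the fold threshold. Without D10 replicate 1 the latter was 0.34 (adjusted p = 0.085). From D7 to D8 its difference was -0.05 (interval -0.40 to 0.30, adjusted p = 0.88).

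The Id genes differed in the shape of their time courses while all 4 had their highest mean at D28. Differences within a library, not corrected for gene length, show this beside each other. Id3 minus Id1 was 0.89 ± 0.35 (SD, n = 3) at D7 and 1.22 ± 0.08 at D28, above 0 in all 6 of these libraries. It was 0.02, -0.03 and 0.19 at D8 and -0.38 ± 0.07 at D10, where all 3 libraries were below 0. Id4 minus Id1 was -4.52 ± 0.19 at D7, -4.53 ± 0.14 at D8 and -4.91 ± 0.25 at D10, and -2.04 ± 0.19 at D28. D10 replicate 1 does not stand apart in these differences for Id3 as it does in the single values.

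**Figure D3:**
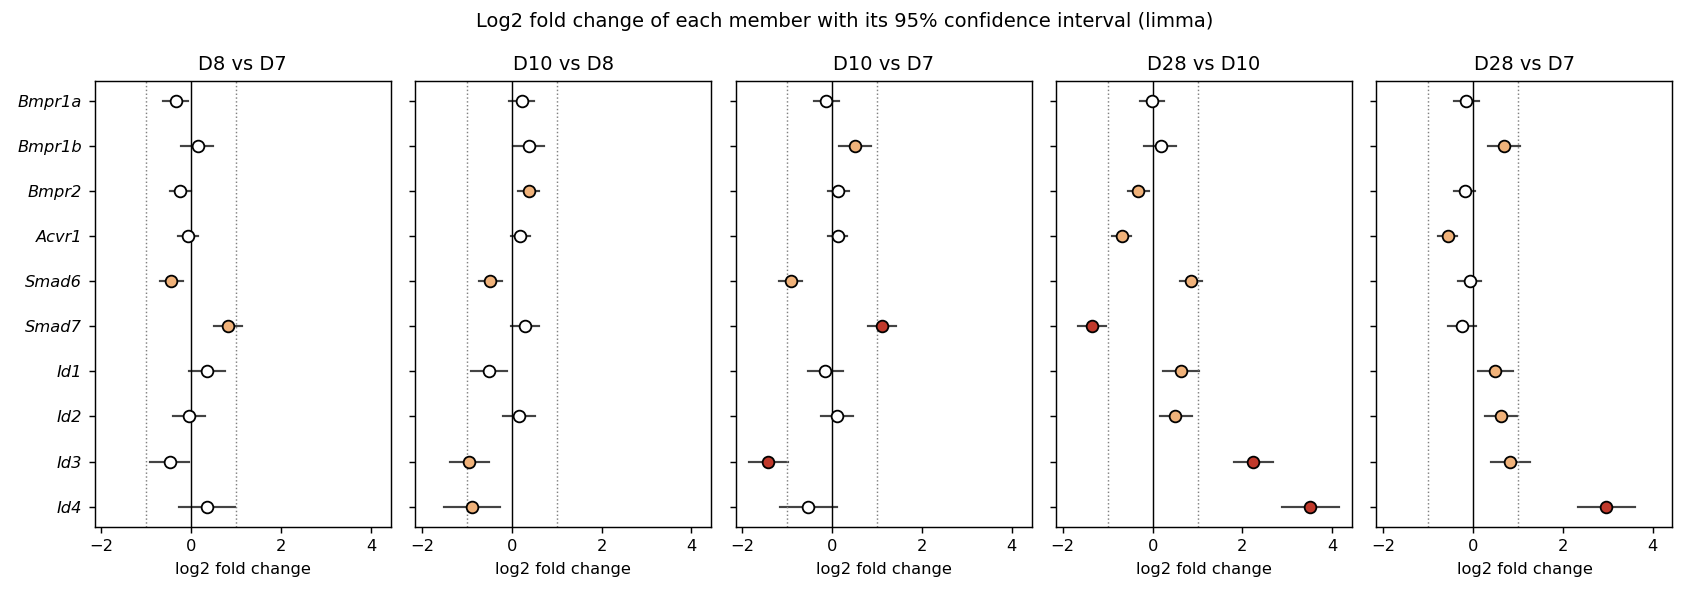
Log2 fold change of each of the 10 genes (horizontal axis) in each of the 5 comparisons, with its 95% confidence interval from limma. Dark red points passed both the fold threshold (dotted lines at 1 in either direction) and the adjusted p, light orange points passed the adjusted p but not the fold threshold and open points passed neither; Id4 from D10 to D28 is the farthest from 0 at 3.50.

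Levels were compared between genes per kilobase of merged exons, on the log2 scale of the mean. At D7 Id3 (10.26) and Id1 (10.00) led with overlapping libraries, followed by Bmpr1a (8.92) and Id2 (8.74), which also overlapped. Acvr1 (8.13), Smad6 (7.74), Smad7 (6.80), Bmpr2 (6.78), Bmpr1b (5.20) and Id4 (3.72) followed, with overlap between Smad7 and Bmpr2 only. Bmpr1a was thus the highest of the 4 receptors per kilobase and Bmpr1b the lowest. At D8 Id1 (10.35) lay above Id3 (9.78) with no overlap, followed by Id2 (8.69) and Bmpr1a (8.56), which overlapped. At D10 Id1 (9.85) led, and Id2 (8.85), Id3 (8.84) and Bmpr1a (8.79) overlapped behind it. At D28 the order was Id3 (11.09), Id1 (10.49), Id2 (9.37) and Bmpr1a (8.77). Smad6 (7.67) and Acvr1 (7.57) came next and overlapped, followed by Id4 (6.71), Bmpr2 (6.60) and Smad7 (6.55), which overlapped in their neighbours, and Bmpr1b (5.90). Id4 moved from the lowest level per kilobase to one beside Bmpr2 and Smad7.

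The other genes of the pathway were taken by list. Over all genes tested, 8.5% rose and 10.4% fell from D7 to D10 (median log2 fold change 0.053). These shares were 8.63% and 8.66% from D7 to D28 (median -0.032) and 13.8% and 13.7% from D10 to D28 (median -0.103). They stand beside the counts of every pathway list below. Of 10 other receptors and co-receptors, 1 rose and 5 fell from D7 to D10 (median log2 fold change -0.97), and 1 rose and 1 fell from D7 to D28 (median 0.03). Acvrl1, the type I receptor for Bmp9 and Bmp10, fell by 1.33 from D7 to D10 (limma, adjusted p = 2.4e-04) and was 1.51 above D7 at D28 (adjusted p = 8.6e-05). The antagonistic pseudoreceptor Bambi fell by 1.18 to D10 (adjusted p = 0.0023), the co-receptor Rgma fell by 1.25 (adjusted p = 5.2e-07) and endoglin (Eng) fell by 1.10 (adjusted p = 7.2e-05). The type II receptor Acvr2b rose by 1.35 to D10 (adjusted p = 0.041) from values between 3.45 and 4.49. The co-receptor Hjv was listed at 0 in the 3 D10 libraries, from 4.80, 5.16 and 4.79 at D7, and no fold change is given for it.

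Of 11 Smads and modulators of Smads, 1 rose and 0 fell from D7 to D10, and 1 rose and 1 fell from D7 to D28. Among the signal-carrying Smads, Smad5 was lower at D28 than at D7 by -0.67 (limma, adjusted p = 4.2e-05) and Smad1 by -0.45 (adjusted p = 0.0094), both under the fold threshold. Smad9 rose by 1.14 from D10 to D28 (adjusted p = 4.6e-05). The ubiquitin ligase Smurf1, which marks Smad1, Smad5 and receptors for degradation, rose by 1.60 from D7 to D10 (adjusted p = 1.9e-06). The Smad co-repressor Skil fell by 1.65 (adjusted p = 2.1e-08) and Tob2 rose by 1.11 (adjusted p = 1.0e-06) from D7 to D28. Of 3 E proteins, the partners of Id proteins, 0 rose and 0 fell in each of the 5 comparisons. From D7 to D28, Tcf3 and Tcf12 were lower by -0.37 (adjusted p = 0.012) and -0.46 (adjusted p = 0.0041), and Tcf4 was higher by 0.38 (adjusted p = 0.0074), so each passed the adjusted p without reaching the fold threshold.

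Of 12 BMP and GDF ligands tested (13 listed), 1 rose and 4 fell from D7 to D10, and 3 rose and 4 fell from D7 to D28. Bmp2 rose by 3.29 from D7 to D10 (limma, adjusted p = 1.6e-07), reading 9.39, 10.27 and 10.68 at D10. Bmp2 lay at 7.22, 6.62 and 7.27 at D28, close to its D7 values of 6.65, 6.69 and 7.15. Bmp4 fell by 1.12 to D10 (adjusted p = 0.0025) and was 1.81 above D7 at D28 (adjusted p = 4.9e-05). Bmp7 fell by 4.41 (adjusted p = 1.3e-08) and Gdf5, a ligand of joint formation, by 2.20 (adjusted p = 5.3e-07) from D7 to D28, while Gdf6 rose by 3.64 (adjusted p = 2.4e-05). Bmp8a fell by 3.25 to D10 (adjusted p = 3.5e-08) and by 1.51 from D7 to D28 (adjusted p = 7.6e-05).

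Of 12 secreted antagonists, 2 rose and 7 fell from D7 to D10 (median -1.42), 4 rose and 2 fell from D7 to D28 (median -0.04), and 7 rose and 1 fell from D10 to D28 (median 1.59). Noggin (Nog), which binds BMPs and is itself induced by them, fell by 3.64 from D7 to D10 (limma, adjusted p = 3.5e-09). Chrdl2 fell by 4.78 (adjusted p = 4.3e-10) and follistatin (Fst), an antagonist of activins and some BMPs, fell by 2.36 (adjusted p = 1.6e-07) over the same interval. Fst was 2.40 above D7 at D28 (adjusted p = 1.4e-07). Gremlin 1 (Grem1) rose by 1.73 to D10 (adjusted p = 4.5e-08) and was 3.34 above D7 at D28 (adjusted p = 5.7e-11). Sostdc1, which antagonizes BMP and Wnt ligands, was under the level of 3 reads in all D7 libraries and read 6.58, 6.13 and 6.78 at D28.

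Of 9 other BMP response genes, which include Nog and Grem1, 3 rose and 2 fell from D7 to D10, and 2 rose and 1 fell from D7 to D28. The homeobox genes differed among themselves, as Dlx3 rose by 1.29 (limma, adjusted p = 0.0041) and Msx1 fell by 1.06 (adjusted p = 0.0038) to D10. Msx2 rose by 1.37 (adjusted p = 0.0049) and Junb, an immediate early gene, fell by 1.48 (adjusted p = 9.1e-07) from D7 to D28.

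**Figure D4:**
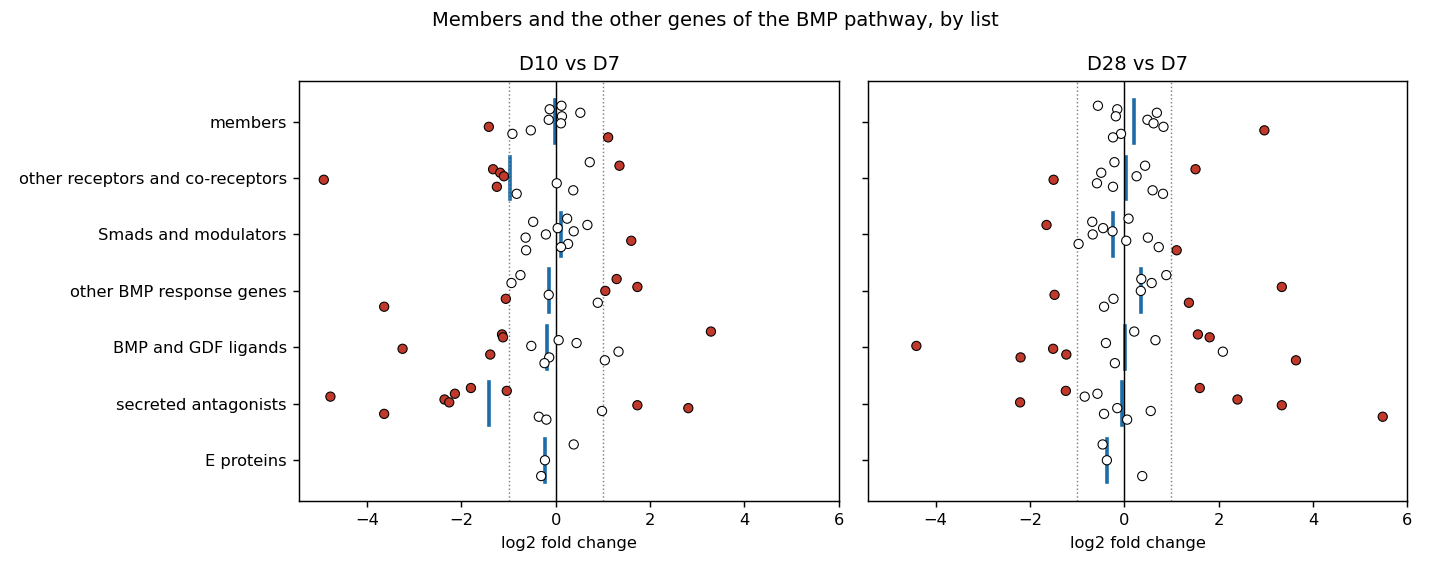
Log2 fold change (horizontal axis) of every tested gene of each list (rows) from D7 to D10 and from D7 to D28, with the 10 genes of this report in the row named members. Filled points rose or fell, open points did neither, blue bars are medians and dotted lines mark the fold threshold of 1; the median of the secreted antagonists is at -1.42 in the first panel and -0.04 in the second.

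The pellets were checked against markers of the cell types they could hold, by the summed equalized count of each list and by how many of its genes rose or fell (limma). Over all genes tested, 3.23% rose and 3.81% fell from D7 to D8, and 4.08% and 5.58% from D8 to D10. These shares were 8.5% and 10.4% from D7 to D10, 13.8% and 13.7% from D10 to D28, and 8.63% and 8.66% from D7 to D28. Cartilage markers (6 genes) were present throughout, summing to 2424588 to 2434652 over the D7 libraries, 2323674 to 2608622 over D8, 1098283 to 1139399 over D10 and 2333560 to 2399335 over D28. Col2a1 alone gave 76.2% to 87.1% of this sum, and it has 1 identical value in all D7, D8 and D28 libraries and another in all D10 libraries, both set by its rank in the equalization. Its log2 fold change from D7 to D10, -1.06, had an adjusted p of 0.16 (limma). By count, 4 of the 6 cartilage markers fell and 0 rose from D7 to D10, and 3 rose and 0 fell from D10 to D28, the steps at which Id3 fell and rose.

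Osteoblast markers (7 genes) summed to 363645 to 575896 at D7, 157853 to 340066 at D8, 108707 to 197877 at D10 and 177613 to 198239 at D28, of which Col1a1 gave 84.2% or more. Among the 7, 2 rose and 4 fell from D7 to D10, and 4 rose and 0 fell from D10 to D28. Hypertrophic cartilage markers (4 genes) summed to 181769 to 222586 at D7, 166052 to 273150 at D8, 210653 to 341153 at D10 and 57448 to 99207 at D28, a sum in which Col10a1 took 17.3% to 97.8%. The other members moved against Col10a1, as Ihh, Mmp13 and Panx3 all fell from D7 to D10 and rose from D10 to D28, while Col10a1 fell by 3.82 from D10 to D28 (limma, adjusted p = 2.7e-06).

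Adipocyte markers (5 genes) summed to 3928 to 4693 at D7, 1799 to 2425 at D8, 949 to 1408 at D10 and 40933 to 55688 at D28, and all 5 rose from D10 to D28 and from D7 to D28. They were lowest at D10 and highest at D28, as were Id4 and Id3. The means of Ihh, Panx3, Adgre1, Csf1r and Lyz2 from other lists had this course too, and 13.8% of all genes tested rose from D10 to D28. Pericyte and smooth muscle markers (4 genes) summed to 16576 to 21745 at D7, 25250 to 33306 at D8, 15100 to 17936 at D10 and 7268 to 8198 at D28, with 49% to 98.7% from Cspg4, which fell by 1.99 from D10 to D28 (limma, adjusted p = 4.3e-08). The other 3 rose at that step together with Id4 and Id3, Rgs5 by 4.82 (adjusted p = 8.7e-09), Myh11 by 5.62 (adjusted p = 1.3e-07) and Acta2 by 2.88 (adjusted p = 2.3e-09), and they also rose from D7 to D28.

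Macrophage and blood markers (5 genes) summed to 1058 to 1230 at D7, 815 to 1064 at D8, 804 to 1406 at D10 and 839 to 4412 at D28. Among them 1 rose and 1 fell from D7 to D10, and from D10 to D28 Adgre1, Csf1r and Lyz2 rose by 3.07, 2.64 and 1.46 (limma, adjusted p = 4.9e-04, 0.0022 and 0.012) while Cd68 fell by 1.09 (adjusted p = 0.0059). The D28 libraries differed widely, as D28 replicate 2 was the highest, at 7.49 for Adgre1 (the others 4.75 and 5.36), 7.92 for Csf1r (4.72 and 5.13) and 11.80 for Lyz2 (9.26 and 9.49). Endothelium markers (6 genes) summed to 52 to 76.2 at D7, 256 to 419 at D8, 399 to 515 at D10 and 21.9 to 53.7 at D28, with 8.75% to 96.1% from Vwf, which read 7.68, 8.02 and 7.57 at D8 and 8.70, 8.59 and 8.66 at D10. From D7 to D8, 3 of the 6 rose and 0 fell, and from D8 to D10, 0 rose and 1 fell (Cdh5, by 2.23, adjusted p = 0.021), with a median of -1.58 over the list. Kdr was at no more than 3 reads in all D7 libraries and Cdh5 in all D10 and D28 libraries. Skeletal muscle markers (4 genes) summed to 1873 to 2566 at D7, 481 to 878 at D8, 162 to 245 at D10 and 9 to 47 at D28, with Myh3 at no more than 3 reads in all D28 libraries. None of the markers of these lists was at 0 in every library of a time point. The part of these cell types in the results for the Id genes and inhibitory Smads was not tested.

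The genes whose values were most like those of each gene were looked for among 13245 genes, by Pearson correlation over the 12 libraries, which share time points. The closest to Id4 were Msrb1 (0.986), Nrep (0.981) and Inmt (0.980). Lbh (0.989) and 1110051M20Rik (0.987) were closest to Id3. For Smad6 they were Olfml3 (0.981), Pros1 (0.981) and Apbb1 (0.979), and for Smad7 Nhp2 (0.983), Tnfrsf23 (0.980) and Anxa8 (0.978). Correlations were lower for Id1, where Myl6 (0.939) was closest, and for Id2, where Dnajc10 (0.954) was. Among the 10 genes themselves, Id3 correlated with Smad6 at 0.90, with Id4 at 0.85 and with Smad7 at -0.82, Id2 with Id4 at 0.82, and Acvr1 with Id4 at -0.92. These values describe the shared time course of 4 groups of libraries and carry no test.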

How the data were processed

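RNA sequencing values of 12 libraries were used, and the staining, implantation and gene silencing experiments were not analysed here. Per the submitters' processing notes and the paper's supplementary methods, reads were trimmed with Trimmomatic 0.36, aligned with HISAT2, annotated with Cufflinks and counted with HTSeq, and the counts were then equalized and log-transformed (Matlab). The authors deposited log2 values, of equalized counts to which 1 was added, for each gene and library. Unlogged values sum to between 25529105 and 25530208 in each library, so a difference in the total RNA or depth of a library is not kept. The notes name GRCm38 and the methods hg38, and gene positions given here are those of GRCm38 (GENCODE M21). Every value column was mapped to a sample.

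The members and gene lists were chosen with earlier results of these data known. Genes reaching a log2 value of 1 in 3 or more libraries entered a limma fit (version 3.58.1, R 4.3.3) with 1 mean per time point, a variance trend, 8 residual and a median of 7.23 prior degrees of freedom, two-sided moderated tests and Benjamini-Hochberg adjustment over 17674 genes. Calls needed a log2 fold change of at least 1 in size and an adjusted p under 0.05. The fit was tested on simulated data. All 10 members were named, and of each pathway list up to 6 called genes by size of change at D10 or D28 against D7, and some genes that the naming rules give are not reported here. A few others, chosen after their values were seen, are Smad1, Smad5, Smad9 and the E proteins. Read numbers were taken as the rank of a value among the distinct levels of its library. They are near to read counts at low levels, understate them at high levels and bear on counting error only. Alternatives were the filter, the pseudocount, a floor at 3 reads, median-of-ratios scaling, a replicate block, a variance prior without trend, other fold thresholds, the study's own rule and each library left out. Python 3.11.15, numpy 2.4.6 and pandas 2.3.3 were used for tables, and matplotlib 3.10.9 for figures.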

Additional observations from a re-analysis of the deposited data

How the results depend on the processing

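Of 850 values of the 10 genes under alternatives, 3 lost and 23 gained a call, 0 called values changed sign, and 9 values called in neither fit changed sign. All 3 losses came from the log2 fold change threshold of 2 and 18 gains from dropping the threshold, so these follow from the same fit. The other gains were those of Id3 and Id4 for D10 against D8 with a library left out. With no fold change threshold the counts of higher and lower members were 1 and 1 (D8 against D7), 1 and 3 (D10 against D8), 2 and 2 (D10 against D7), 5 and 3 (D28 against D10) and 5 and 1 (D28 against D7), and all genes called were 3714, 5096, 7288, 9259 and 6592 beside 1244, 1708, 3340, 4854 and 3057. At a log2 fold change of at least 2 the counts fell to 0 higher and 0 lower for D10 against D7 and to 0 lower for D28 against D10, and all genes called were 388, 532, 1342, 2095 and 1356. Leaving out each library in turn gave 0 to 2 lower members for D10 against D8: 1 (Id3) without D8 replicate 3, and 2 (Id3 and Id4) without D10 replicate 2 and without D10 replicate 3, where 1379, 1775 and 1638 of all genes were called. Median-of-ratios scaling moved the median of all genes for D28 against D10 from -0.103 to 0.007, and gave 2.37 for Id3, 3.63 for Id4, -1.22 for Smad7 and 0.11 for Bmpr1a there; Smad6 was at -1.0 for D10 against D7 and remained uncalled. Same-numbered replicates of different time points deviated together at correlations of -0.06 to 0.07 over 18 pairs. Differently numbered ones did so at -0.07 to 0.09 over 36 pairs. No shared deviation by number was seen, which cannot tell whether the numbers mark shared cultures or animals. The fit with the replicate block changed no call of a member, with Id3 at -1.42 (limma, adjusted p = 1.2e-04) for D10 against D7. Id4 has the fewest reads, about 10 at the lowest, and differences of Id4 before D28 are limited by this depth.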
